A study of Homo sapiens with 8 samples.

Results

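PTGDR2, LGALS1, NT5E, EVI2A and ARHGAP39 are 5 genes whose transcripts were higher in Jurkat cells given GSI, and they were picked from the measured values for that difference. They are 5 of the 63677 genes listed in the count table, and all 5 were among the 15646 genes with enough counts to be tested. The choice read the libraries of all 4 groups and picked genes that rose with GSI. EVI2A and NT5E had also been seen earlier in the libraries with both drugs. Every difference between libraries with and without GSI is therefore given for these genes as a description with no test. Only differences that compare libraries with and without dTAG-13, or the way the drugs combine, were tested for them, and these tests share libraries with the choice.

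Jurkat is a long-established line of human T-cell acute lymphoblastic leukaemia, and the cells of all 4 groups carried TAL1, a transcription factor of this leukaemia, as a TAL1-FKBP12 fusion. They received dTAG-13 together with GSI (called the combination here), GSI alone, dTAG-13 alone, or DMSO as the solvent control. Treatment lasted 24 hours, each group had 2 libraries of strand-specific total RNA sequencing at doses that the labels do not state. dTAG-13 is a small molecule that joins an FKBP12-tagged protein to a ubiquitin ligase so that the protein is degraded, and GSI commonly stands for a gamma-secretase inhibitor, which blocks the cleavage that releases the active fragment of NOTCH receptors. TAL1 protein was not measured, and a degrader acts on protein, so the transcripts do not check its loss. The labels do not say that the 2 libraries of a group came from separate cultures, nor whether the tagged line is 1 clone, so the p-values cover the spread between these libraries and that spread may be technical only.

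The 5 genes encode proteins of unlike kinds. PTGDR2 (also called CRTH2 or DP2) is a G protein-coupled receptor for prostaglandin D2, best known on type 2 helper T cells, eosinophils and basophils, where its ligand draws the cells toward sites of allergic inflammation. LGALS1 encodes galectin-1, a secreted lectin that binds beta-galactoside sugars on glycoproteins such as CD45, CD43 and CD7 of T cells and can cross-link them. NT5E encodes CD73, a cell-surface enzyme that turns extracellular AMP into adenosine, which acts on adenosine receptors and dampens T-cell responses. EVI2A is a small gene for a membrane protein of blood cells and is known as a gene nested within NF1. ARHGAP39 encodes a GTPase-activating protein, a class that switches small GTPases off, and its Drosophila counterpart Vilse acts downstream of the guidance receptor Robo.

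Because the 5 genes were higher together in the libraries with GSI, their promoters were looked up in a RefSeq table, which held that of NT5E for 1 of the 5 genes. It is shown as the 250 bases before the annotated start of NT5E, on the plus strand of GRCh38.p14 at chr6:85449833-85450082, with capitals on each match to a GC box, the motif of SP family factors (GGGCGG, read here on the other strand):
NT5E: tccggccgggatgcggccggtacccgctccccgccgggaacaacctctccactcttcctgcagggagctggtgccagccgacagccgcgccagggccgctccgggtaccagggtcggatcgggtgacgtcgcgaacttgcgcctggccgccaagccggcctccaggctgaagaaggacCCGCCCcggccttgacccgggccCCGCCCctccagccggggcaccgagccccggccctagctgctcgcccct

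G and C made up 75.2% of this stretch, against a median of 58% over all promoters of the table. The 2 GC boxes began 72 and 49 bases before the start, and 42.6% of the 35116 promoters of the same length held at least 1. The stretch held 0 matches on either strand to TGGGAA, the core bound by RBPJ, the DNA-binding partner of NOTCH, which 20.8% of all promoters held. It also held 0 matches to the E-box CANNTG, bound by TAL1 with its E protein partners, which 61.8% of all promoters held, and therefore 0 to CACGTG, the E-box of MYC (6.34% of all), which is a form of it. The RUNX core TGTGGT (11% of all promoters) and the GATA core AGATAA (9.17%) had 0 matches as well. These counts describe the letters of this window only.

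The libraries held 17544319 to 22180009 counts each, and levels are given as CPM, the counts of a gene scaled to a common library size with TMM factors. Replicates of a group differed by more than counting noise, so none was a copy of the other. Markers of the T lineage, to which the labels assign the cells, summed to 3236 to 3744 CPM per library with 1 of 12 at 0. Markers of myeloid cells, eosinophils, basophils and mast cells, in which PTGDR2 is also known, summed to 2.40 to 2.98 CPM in combination, 2.51 to 2.53 CPM in GSI, 2.28 to 2.49 CPM in dTAG-13 and 1.95 to 2.66 CPM in DMSO libraries. Of these 20 genes 6 were at 0 in all libraries, among them FCER1A, CPA3, MS4A2 and MPO. Stromal and endothelial markers, cells rich in galectin-1 and CD73, summed to 36.5 to 39.1 CPM in combination, 35.9 to 43.3 CPM in GSI, 38.5 to 42.1 CPM in dTAG-13 and 39.2 to 43.8 CPM in DMSO libraries. Here 9 of 15 were at 0, and THY1, which lymphoid cells can express too, supplied 34.4 ± 5.14 CPM in GSI cells and 36.3 ± 1.44 CPM in DMSO cells (SD, n = 2 each). In a bulk culture, more cells expressing a gene and more RNA of it per cell cannot be told apart.

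PTGDR2, the prostaglandin D2 receptor, had 7.77 and 9.06 CPM in the combination libraries, 7.79 and 8.83 CPM in the GSI libraries, 3.59 and 3.12 CPM in the dTAG-13 libraries, and 2.54 and 3.04 CPM in the DMSO libraries. Both groups with GSI lay close together and far above both groups without it. The counts behind these values were low, with 166 and 183 counts in the GSI libraries and 44 and 67 in the DMSO libraries. The exact 95% Poisson interval of the lowest, 44 counts in DMSO replicate 1, ran from 32.0 to 59.1, and that of GSI replicate 1 ran from 142 to 193, for counting error only. On the log2 scale PTGDR2 was 1.56 higher in GSI cells than in DMSO cells (SE 0.18, 2.95-fold), and 1.58 higher in combination cells than in DMSO cells (SE 0.18, 2.99-fold).

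LGALS1, the lectin, had 14.8 and 14.6 CPM in the combination libraries, 13 and 17.5 CPM in the GSI libraries, 6.68 and 8.67 CPM in the dTAG-13 libraries, and 6.70 and 5.49 CPM in the DMSO libraries. The GSI replicates were wider apart than those of its other groups, at a mean of 15.3 ± 3.19 CPM (SD, n = 2), yet both stayed above every library without GSI. DMSO replicate 1 lay level with the lower dTAG-13 library, so these groups overlapped. LGALS1 was higher by a log2 fold change of 1.33 in GSI cells (SE 0.18, 2.52-fold) and of 1.28 in combination cells (SE 0.18, 2.43-fold), each against DMSO cells.

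NT5E, the AMP-cleaving enzyme, had 11.6 and 12.1 CPM in the combination libraries, 11.8 and 10.1 CPM in the GSI libraries, 6.31 and 7.09 CPM in the dTAG-13 libraries, and 4.85 and 5.95 CPM in the DMSO libraries. The 4 libraries with GSI did not overlap the 4 without it, and both dTAG-13 libraries lay above both DMSO libraries. The log2 fold change against DMSO cells was 1.01 in GSI cells (SE 0.15, 2.01-fold) and 1.12 in combination cells (SE 0.15, 2.18-fold).

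EVI2A, the gene nested in NF1, had 8.75 and 7.77 CPM in the combination libraries, 6.57 and 7.33 CPM in the GSI libraries, 4.88 and 4.43 CPM in the dTAG-13 libraries, and 3.81 and 3.72 CPM in the DMSO libraries. Of the 5 it was the gene whose 4 groups did not overlap, with combination highest, then GSI, then dTAG-13, then DMSO. The share of all tested genes in this full order was not counted. Both combination libraries lay above both GSI libraries for 11.8% of all tested genes, and both dTAG-13 above both DMSO libraries for 17.7%. Neither of these 2 differences passed for EVI2A, which had been seen earlier in the combination libraries. Its log2 fold change against DMSO cells was 0.88 in GSI cells (SE 0.16, 1.84-fold) and 1.13 in combination cells (SE 0.16, 2.19-fold).

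ARHGAP39, the GTPase-activating protein, had 7.35 and 7.96 CPM in the combination libraries, 7.13 and 8.25 CPM in the GSI libraries, 4.19 and 4.43 CPM in the dTAG-13 libraries, and 3.52 and 3.50 CPM in the DMSO libraries. The combination replicates fell between the GSI replicates, while the dTAG-13 libraries stood a step above the DMSO libraries. The log2 fold change against DMSO cells was 1.13 in GSI cells (SE 0.16, 2.19-fold) and 1.12 in combination cells (SE 0.16, 2.18-fold).

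**Figure D1:**
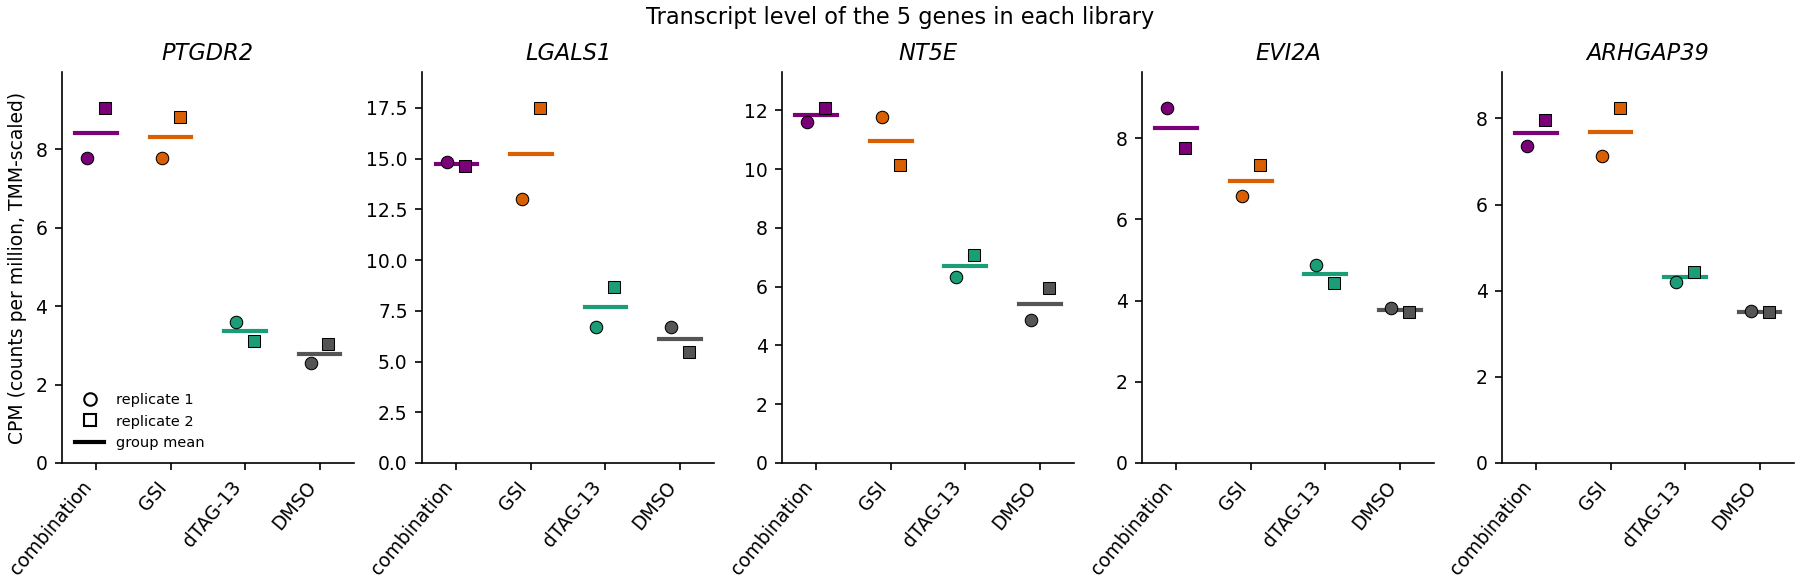
Level of each of the 5 genes in every library, in CPM on a linear axis that starts at 0, with the groups from left to right combination, GSI, dTAG-13 and DMSO, a circle for replicate 1, a square for replicate 2 and a line for the group mean. In each panel the 4 libraries with GSI lie above the 4 without, and the ratio across the gap is widest for PTGDR2, at 7.77 CPM for the lowest library with GSI and 3.59 CPM for the highest without.

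All 5 genes had their 4 libraries with GSI above their 4 libraries without it, which the choice favours, and 7% of all tested genes did so. The margin between the lowest library with GSI and the highest without it was a ratio of 2.16 for PTGDR2, 1.61 for ARHGAP39, 1.50 for LGALS1, 1.43 for NT5E and 1.35 for EVI2A. In cells that also had dTAG-13, the GSI difference (combination against dTAG-13) was a log2 fold change of 1.32 for PTGDR2 (SE 0.17), 0.94 for LGALS1 (SE 0.17), 0.82 for NT5E (SE 0.15), 0.83 for EVI2A (SE 0.15) and 0.83 for ARHGAP39 (SE 0.15). PTGDR2 thus had the widest difference in each of the 3 comparisons with and without GSI, and EVI2A the narrowest against DMSO cells when GSI was given alone.

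The 10555 genes that averaged 5 CPM or more were ranked by log2 fold change of GSI against DMSO cells, whether or not they passed. PTGDR2 stood 1st, LGALS1 3rd, ARHGAP39 7th, NT5E 11th and EVI2A 19th, a ranking that describes the choice. TRAC, the constant region of the T-cell receptor alpha chain, stood between PTGDR2 and LGALS1 at 1.40, and CECR6 followed EVI2A directly at 0.88. For combination against DMSO cells PTGDR2 stood 1st, LGALS1 2nd, EVI2A 5th, ARHGAP39 6th and NT5E 7th of the same genes. The recombinase gene RAG1 stood 3rd, at 1.17. The floor of 5 CPM applied to the mean over all groups. PTGDR2, ARHGAP39 and EVI2A had 2.79, 3.51 and 3.77 CPM in DMSO cells and cleared the floor only through the groups with GSI. Among all tested genes PTGDR2 stood at percentile 99.7 in both comparisons, so genes below the floor had larger log2 fold changes. EVI2A stood at percentile 98.2 in GSI and 99.1 in combination cells. The authors' deposited table for GSI against DMSO cells gave log2 fold changes from 0.87 for EVI2A to 1.56 for PTGDR2. The standard errors in the authors' deposited table were wider than those given above, at 0.25 for LGALS1 to 0.31 for PTGDR2.

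Divided by the length of their exons in GENCODE v29, the levels followed another order than the fold changes. LGALS1 had the highest level per kilobase, at 13.4 CPM per kb in combination, 13.9 in GSI, 6.98 in dTAG-13 and 5.55 in DMSO cells. EVI2A followed in each group, with 3.36 CPM per kb in GSI cells and 1.82 in DMSO cells. PTGDR2 had 2.87 CPM per kb in GSI cells and 0.964 in DMSO cells, and NT5E had 2.42 in GSI cells and 1.19 in DMSO cells, so PTGDR2 stood above NT5E in GSI cells and below it in DMSO cells. ARHGAP39 was lowest, at 1.57 CPM per kb in GSI cells and 0.718 in DMSO cells. In each group the libraries of genes next to each other in this order did not overlap, though PTGDR2 and NT5E came close. The lower PTGDR2 library in combination cells had 2.69 CPM per kb and the higher NT5E library 2.67, and in DMSO cells the higher PTGDR2 library had 1.05 and the lower NT5E library 1.07. By mean CPM, not divided by length, all 5 lay in the lower part of the tested genes, between percentile 34.0 for PTGDR2 and percentile 41.1 for LGALS1.

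Whether degradation of TAL1 moves these transcripts was asked first in cells without GSI. All 5 were somewhat higher in dTAG-13 than in DMSO cells, and none passed the test. The means were 3.36 ± 0.333 CPM in dTAG-13 cells and 2.79 ± 0.354 CPM in DMSO cells for PTGDR2. For LGALS1 they were 7.68 ± 1.41 CPM in dTAG-13 cells and 6.10 ± 0.853 CPM in DMSO cells, and for NT5E 6.70 ± 0.547 CPM in dTAG-13 cells and 5.40 ± 0.775 CPM in DMSO cells. For EVI2A they were 4.66 ± 0.322 CPM in dTAG-13 cells and 3.77 ± 0.0628 CPM in DMSO cells, and for ARHGAP39 4.31 ± 0.167 CPM in dTAG-13 cells and 3.51 ± 0.0191 CPM in DMSO cells (SD, n = 2 each). The log2 fold changes lay in a narrow band, at 0.26 for PTGDR2 (95% interval -0.18 to 0.69), 0.34 for LGALS1 (-0.07 to 0.76), 0.30 for NT5E (-0.05 to 0.65), 0.31 for EVI2A (-0.06 to 0.67) and 0.30 for ARHGAP39 (-0.08 to 0.67). Every edgeR adjusted p was 0.9996, where 0.0192% of tested genes passed, and the unadjusted quasi-likelihood p-values ran from 0.0844 for NT5E to 0.222 for PTGDR2.

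The median of the 5 differences was 0.30, against 0.0058 over all genes tested, of which 51.9% were positive. Both dTAG-13 libraries lay above both DMSO libraries for 4 of the 5, PTGDR2, NT5E, EVI2A and ARHGAP39, and for 17.7% of all tested genes. These differences share libraries with the values the genes were chosen on, and a low DMSO value raises both them and the GSI difference. When each of the 4 libraries was left out in turn, the log2 fold change ranged from 0.14 to 0.40 for PTGDR2, 0.14 to 0.51 for LGALS1 and 0.17 to 0.46 for NT5E. It was steadier for EVI2A (0.23 to 0.38) and ARHGAP39 (0.26 to 0.33). The authors' deposited table for dTAG-13 against DMSO gave 0.26 to 0.34 for the 5 genes, each with an adjusted p of 0.9999.

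The comparison of combination with GSI cells asks the same question in cells with GSI. The log2 fold changes were 0.02 for PTGDR2 (95% interval -0.31 to 0.35), -0.05 for LGALS1 (-0.40 to 0.30), 0.11 for NT5E (-0.19 to 0.41), 0.25 for EVI2A (-0.07 to 0.57) and -0.01 for ARHGAP39 (-0.32 to 0.31). Each had an edgeR adjusted p of 0.9992, and 0.0575% of tested genes passed. Over the 5 genes the intervals span -0.40 to 0.57, and they do not show that dTAG-13 was without effect. High GSI values, by which the genes were chosen, lower this difference, and high combination values raise it. EVI2A and NT5E, with the largest differences here, had been seen earlier in the combination libraries, so their place cannot be told apart from the choice. EVI2A, at 8.26 ± 0.695 CPM in combination cells and 6.95 ± 0.538 CPM in GSI cells (SD, n = 2 each), was the 1 gene of the 5 whose 2 combination libraries both lay above both GSI libraries, as 11.8% of all tested genes did.

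Averaged over cells with and without GSI, where a low DMSO value raises and a high GSI value lowers the difference, the effect of dTAG-13 was a log2 fold change of 0.28 for EVI2A (SE 0.11, 95% interval 0.04 to 0.52), with an unadjusted p of 0.0277 and an adjusted p of 0.713 in edgeR's quasi-likelihood test. NT5E followed at 0.21 (-0.03 to 0.44, unadjusted p = 0.0756, adjusted p = 0.897 in edgeR). PTGDR2 at 0.14 (-0.14 to 0.41), LGALS1 at 0.15 (-0.13 to 0.42) and ARHGAP39 at 0.15 (-0.10 to 0.39) had an edgeR adjusted p of 0.999. None of the 5 passed, and 0.499% of tested genes did. A high combination value also raises this difference, and EVI2A and NT5E had been seen earlier in the combination libraries. That these genes had the largest averaged differences therefore cannot be told apart from the choice.

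How the drugs combined was tested on the log2 scale, as the difference of combination from GSI cells minus that of dTAG-13 from DMSO cells, which is 0 where the drug effects add up. It was -0.24 for PTGDR2 (95% interval -0.78 to 0.31), -0.39 for LGALS1 (-0.93 to 0.16), -0.19 for NT5E (-0.65 to 0.27), -0.06 for EVI2A (-0.54 to 0.43) and -0.30 for ARHGAP39 (-0.79 to 0.18). All 5 estimates were negative, and 48.2% of all tested genes had a positive one. No departure passed for the 5 genes, at an edgeR adjusted p of 0.9999 each. Across all genes 0% passed, being 0 of 15646 by edgeR's quasi-likelihood test and 0 by DESeq2's Wald test, and 260 had an unadjusted p below 0.05. The median departure of all tested genes was -0.0067. High GSI values and low DMSO values, by which the genes were chosen, both lower this measure, so the shared negative sign cannot be told apart from the choice. High combination values, seen earlier for EVI2A and NT5E, raise it.

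**Figure D2:**
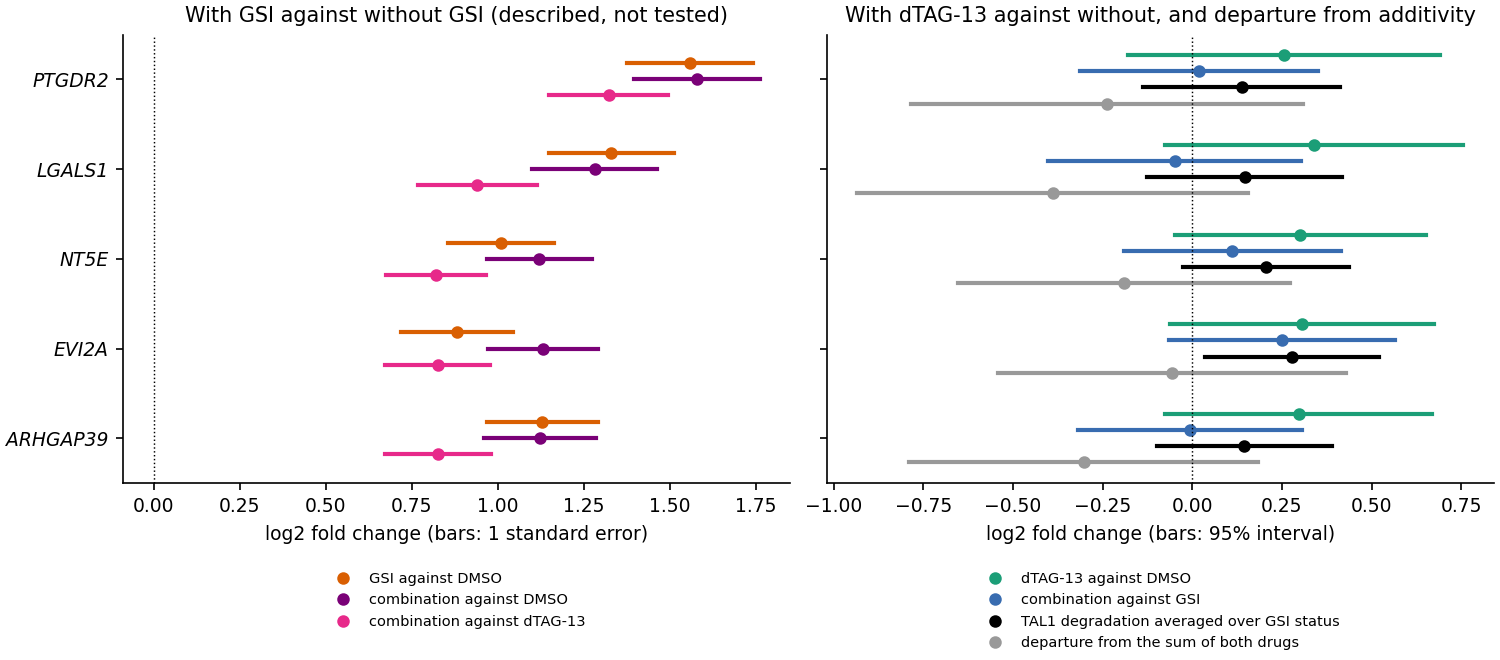
Log2 fold changes of the 5 genes from edgeR, with the 3 comparisons with and without GSI on the left (bars of 1 standard error, no test) and on the right the 2 comparisons with and without dTAG-13, their average over GSI status and the departure from the sum of both drugs (bars of the 95% interval). The left panel runs from 0.82 for NT5E to 1.58 for PTGDR2, and on the right only the averaged dTAG-13 effect on EVI2A has an interval that leaves out 0, before adjustment. EVI2A had been seen earlier in the combination libraries, and high values there raise this average.

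The annotation around the genes bears on how their counts can be read, since the strand setting of the counting is not given in the sources used here. In GENCODE v29 EVI2A lies wholly inside NF1 on the opposite strand and shares 152 exon bases with it. NF1, a RAS GTPase-activating protein, had 71.6 ± 11 CPM in GSI cells and 65.0 ± 2.26 CPM in DMSO cells (SD, n = 2 each), a log2 fold change of 0.14 (adjusted p = 0.627, edgeR). EVI2A also overlaps AC134669.1 on its own strand, over 524 exon bases. PTGDR2 shares 142 exon bases with CCDC86 on the opposite strand and with AP000777.3 on its own. CCDC86, a nucleolar protein gene with many more counts than PTGDR2, had 102 CPM in GSI cells and 130 CPM in DMSO cells, a log2 fold change of -0.34 (adjusted p = 0.345, edgeR), opposite in sign to PTGDR2. An antisense gene at ARHGAP39 shares 0 exon bases with it. Reads of these overlaps could be split or left out by the authors' counting, so the levels of EVI2A and PTGDR2 are less certain than those of the other 3.

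The genes lie on 5 different chromosomes, 11 for PTGDR2, 22 for LGALS1, 6 for NT5E, 17 for EVI2A and 8 for ARHGAP39, and the 2 nearest tested genes on each side were read from RefSeq order. Of these 20 neighbours 1 passed as higher in GSI than in DMSO cells, and 0 as lower, where 0.876% of tested genes passed as higher and 0.863% as lower. That gene was EVI2B, like EVI2A a membrane protein gene within NF1, at 13.1 ± 0.353 CPM in GSI cells and 7.57 ± 0.0845 CPM in DMSO cells (SD, n = 2 each). Its log2 fold change was 0.79 in GSI cells (adjusted p = 0.0139, edgeR) and 0.65 in combination cells, at 11.9 ± 1.79 CPM (adjusted p = 0.0474, edgeR), each against DMSO cells, and 0.543% of tested genes passed as higher in the second comparison. The first call was lost without either DMSO replicate or without GSI replicate 1, with an edgeR adjusted p of up to 0.211 over the settings tried. The second was lost when only the 4 compared libraries were fitted and without either DMSO replicate or combination replicate 2.

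The other neighbours had differences from -0.36 for COPRS to 0.41 for ZP1. Beside NT5E, the sorting nexin gene SNX14 had 0.33 (adjusted p = 0.115, edgeR) and the RNA-binding protein gene SYNCRIP -0.05. Beside LGALS1 they ran from -0.03 for NOL12 to 0.28 for TRIOBP, and beside ARHGAP39 from -0.18 for LRRC14 to 0.31 for ZNF251. In the NF1 list, which also held RAB11FIP4 at 0.04, EVI2B was the 1 of 3 tested genes that passed, and OMG, the other gene nested in NF1, had 57 counts over all libraries and was not tested.

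**Figure D3:**
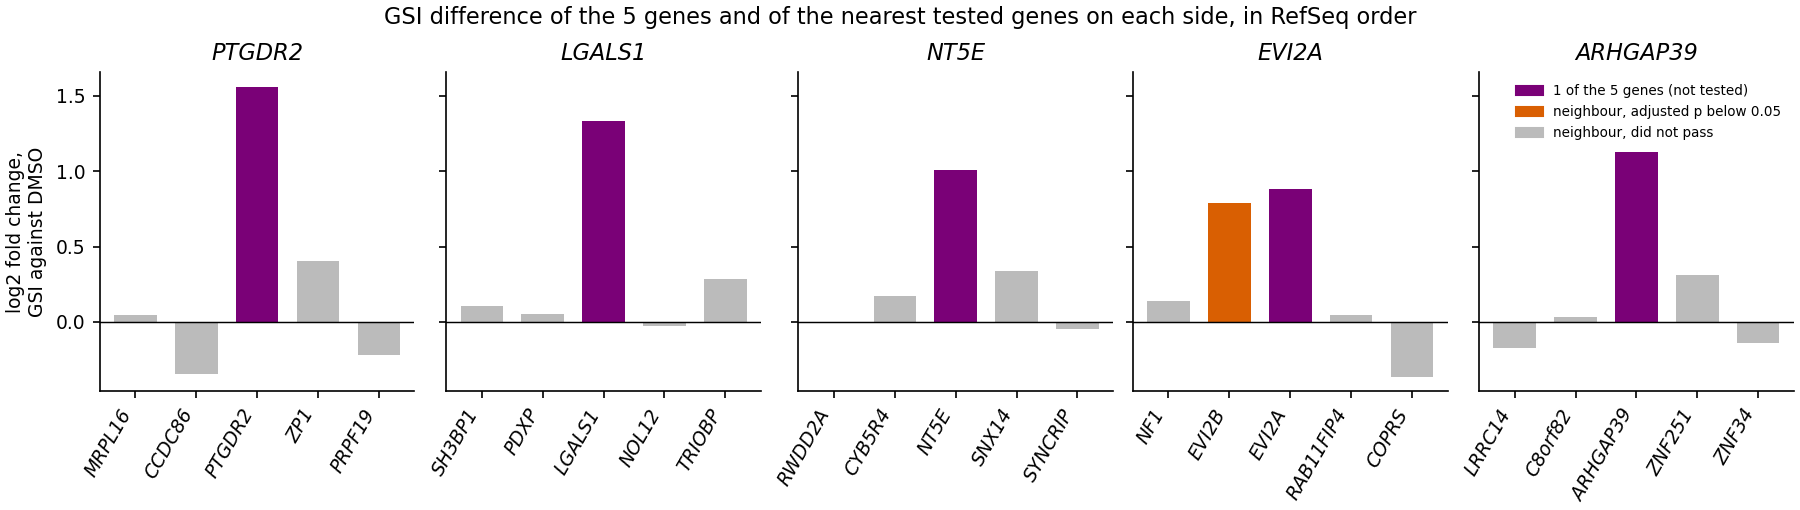
Log2 fold change in GSI against DMSO cells of each of the 5 genes (not tested) and of the 2 nearest tested genes on each side in RefSeq order. EVI2B beside EVI2A is the neighbour that passed, at 0.79, and the other 19 lie between -0.36 and 0.41.

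Genes whose pattern over the 8 libraries was most like that of each of the 5 were found by the root mean square difference of log2 CPM, each gene centred on its own mean, over the 10554 genes that averaged 5 CPM or more. ARHGAP39 was among the 3 closest to each of the other 4, at 0.14 for LGALS1, NT5E and EVI2A and 0.25 for PTGDR2. The 5 genes were picked for rising with GSI in these same libraries, so the choice itself favours closeness among them. PTGDR2, ARHGAP39 and EVI2A also cleared the floor of 5 CPM only through the groups with GSI. Outside the 5, RASGRP1, an activator of RAS in T cells, was the closest gene to NT5E (0.14) and to ARHGAP39 (0.12) and the 2nd closest to LGALS1 (0.24). RASGRP1 had 226 CPM in combination, 224 in GSI, 123 in dTAG-13 and 118 in DMSO cells.

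EVI2A was most like MXD3, a MYC network repressor, at 0.12, with 48.9 CPM in combination, 47.8 in GSI, 31.9 in dTAG-13 and 28.2 in DMSO cells. The RRN3P1 pseudogene came next at 0.13. PTGDR2 had no gene closer than 0.25 and was closest to ARHGAP39, LGALS1 (0.26) and TRAC (0.28), while its place among the genes closest to EVI2A was 345th. The measure rewards a like size of difference as well as a like order, and all 8 libraries are shared, so it is a description of these libraries.

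The other genes of each pathway were read from lists of its ligands, enzymes and relatives. For every list below, the counts stand beside the shares over all tested genes against DMSO cells. These shares were 0.876% higher and 0.863% lower in GSI cells, and 0.543% higher and 0.767% lower in combination cells. For the receptor PTGDR2, of 24 genes of prostaglandin D2 synthesis, transport and prostanoid reception 8 were tested, and 0 rose and 0 fell in GSI or in combination cells against DMSO cells. Their median log2 fold change in GSI cells was -0.12, against 0.0071 over all genes. PTGDR, the other prostaglandin D2 receptor, had 4 counts over all 8 libraries, and HPGDS, the prostaglandin D synthase of blood cells, had 0. The prostaglandin E2 receptor PTGER4 had 85.6 ± 3.19 CPM in GSI cells and 92.7 ± 5.82 CPM in DMSO cells (SD, n = 2 each), and the synthase and chaperone gene PTGES3, with the highest CPM of the list, had 512 ± 8.48 CPM in GSI cells and 572 ± 5.09 CPM in DMSO cells.

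PTGDR2 is also a surface marker of type 2 helper cells, and 8 of 15 further genes of those cells were tested. In GSI cells 1 rose and 0 fell, and in combination cells 0 rose and 0 fell, each against DMSO cells. The gene that rose was GATA3, the transcription factor that drives this lineage and is also expressed in T-cell leukaemia, at 119 ± 0.617 CPM in GSI cells and 86.0 ± 5.18 CPM in DMSO cells (SD, n = 2 each), a log2 fold change of 0.47 (adjusted p = 0.0126, edgeR). That call was lost without either DMSO replicate, and the adjusted p ranged to 0.267 over the other settings. STAT6, which transmits interleukin-4 signals, had a log2 fold change of -0.18, and the median of the list was -0.10. Whether or not they passed, 3 of the 8 had a positive and 5 a negative log2 fold change in GSI cells. Besides GATA3 the positive ones were IL4R at 0.67 (adjusted p = 0.197, edgeR) and CCR4 at 0.59 (adjusted p = 0.201, edgeR). The chemokine receptor gene CCR4, also of these cells, had 1.79 ± 0.163 CPM in combination cells and 4.21 ± 0.384 CPM in GSI cells. It had 1.46 ± 0.283 CPM in dTAG-13 cells and 2.81 ± 0.116 CPM in DMSO cells (SD, n = 2 each). With dTAG-13 it was lower on average over GSI status, at -1.08 (adjusted p = 0.0107, edgeR), where 0.499% of tested genes passed. No other setting is given for this call.

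For LGALS1, of 16 further galectin genes and ligands 8 were tested and 6 were at 0 in all libraries. In GSI cells 0 rose and 1 fell, LGALS3BP, a secreted glycoprotein that binds galectins, at 64.8 ± 1.42 CPM in GSI cells and 82.7 ± 0.886 CPM in DMSO cells (SD, n = 2 each), a log2 fold change of -0.35 (adjusted p = 0.0443, edgeR). Leaving out any of the 4 libraries, or fitting them alone, lost this call. LGALS9, with the highest CPM of the list, had 98.0 ± 12.2 CPM in GSI cells and 109 ± 4.21 CPM in DMSO cells, and LGALS3 had 1.50 ± 0.466 CPM in GSI cells and 0.945 ± 0.0522 CPM in DMSO cells (adjusted p = 0.383, edgeR).

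Glycoproteins that galectin-1 binds on T cells moved in both directions. Of 16 counter-receptor and glycan enzyme genes, all tested, 2 rose and 1 fell in GSI cells and 1 rose and 1 fell in combination cells, with a median of 0.11 in each. Of all tested genes 0.876% rose and 0.863% fell in GSI cells, and 0.543% rose and 0.767% fell in combination cells. PTPRC, which encodes the phosphatase CD45, had 262 ± 3.02 CPM in combination cells, 302 ± 26.8 CPM in GSI cells and 175 ± 1.47 CPM in DMSO cells (SD, n = 2 each). Its log2 fold change was 0.79 in GSI cells (adjusted p = 4.32e-04, edgeR), a call kept under all settings tried, and 0.58 in combination cells (adjusted p = 0.00412, edgeR), a call lost without either DMSO replicate.

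CD7, the glycoprotein through which galectin-1 is known to induce death of T cells, fell to 148 ± 13.5 CPM in combination cells and 153 ± 20.2 CPM in GSI cells, against 227 ± 7.55 CPM in DMSO cells (SD, n = 2 each). Its log2 fold change was -0.57 in GSI cells (adjusted p = 0.0139, edgeR) and -0.62 in combination cells (adjusted p = 0.0101, edgeR). Either call was lost without either DMSO replicate or without replicate 1 of the treated group. CD2, an adhesion receptor, rose by 0.50 in GSI cells (adjusted p = 0.0230, edgeR), which was lost without either DMSO replicate or GSI replicate 2. CD3E of the T-cell receptor complex had a log2 fold change of 0.02.

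For NT5E, genes that make, remove, carry or sense extracellular nucleotides and adenosine fell where they passed against DMSO cells. Of 31 such genes 23 were tested, and in GSI cells 0 rose and 4 fell. The shares over all tested genes were 0.876% and 0.863%. Whether or not they passed, 13 of the 23 had a positive and 10 a negative log2 fold change in GSI cells. In combination cells 0 rose and 3 fell, with shares over all tested genes of 0.543% and 0.767%. In combination against dTAG-13 cells 1 rose and 2 fell, where 100 of the 15646 tested genes rose and 89 fell. The gene that rose was P2RX1, by 0.72 on the log2 scale (adjusted p = 0.0430, edgeR). The genes that fell were ADA, by 0.57 (adjusted p = 0.0281, edgeR), and SLC29A1, by 0.46 (adjusted p = 0.0293, edgeR). The medians were 0.05 in GSI and -0.08 in combination cells, against 0.0071 and 0.0025 over all genes.

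ADA, adenosine deaminase, which removes adenosine and is abundant in immature T cells, fell to 613 ± 91.0 CPM in GSI cells, against 900 ± 9.58 CPM in DMSO cells (SD, n = 2 each), a log2 fold change of -0.55 (adjusted p = 0.0236, edgeR). SLC29A1, the adenosine transporter ENT1, had 134 ± 6.88 CPM in combination cells, 121 ± 10.7 CPM in GSI cells and 180 ± 4.67 CPM in DMSO cells (SD, n = 2 each). It fell by 0.57 on the log2 scale in GSI cells (adjusted p = 0.00688, edgeR) and by 0.43 in combination cells (adjusted p = 0.0393, edgeR). The ATP-gated channel gene P2RX5 fell by 0.55 in GSI cells (adjusted p = 0.0332, edgeR) and by 0.56 in combination cells (adjusted p = 0.0361, edgeR). The GSI calls of these 3 genes were lost without either DMSO replicate or GSI replicate 1, and the combination calls of SLC29A1 and P2RX5 without any of the 4 libraries.

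ENPP1, an enzyme that makes AMP, the substrate of CD73, from extracellular ATP, had 1.01 ± 0.213 CPM in combination cells, 2.43 ± 0.0877 CPM in GSI cells, 2.27 ± 0.440 CPM in dTAG-13 cells and 4.88 ± 0.612 CPM in DMSO cells (SD, n = 2 each). It was lowest with both drugs. It fell by 2.27 on the log2 scale in combination cells against DMSO cells (adjusted p = 4.99e-04, edgeR), a call kept under all settings tried. In GSI cells it fell by 1.01 (adjusted p = 0.0341, edgeR), which was lost under DESeq2's Wald test and without any of the 4 libraries. On average over GSI status it also fell by 1.18 with dTAG-13 (adjusted p = 0.0107, edgeR).

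ENTPD1, which encodes CD39, the enzyme that supplies CD73 with AMP in T cells, had 3.11 ± 0.781 CPM in GSI cells and 2.11 ± 0.358 CPM in DMSO cells (SD, n = 2 each), and did not pass (log2 fold change 0.57, adjusted p = 0.342, edgeR). DPP4, the surface protein CD26 that anchors adenosine deaminase, had 5.37 ± 0.232 CPM in GSI cells and 5.17 ± 0.203 CPM in DMSO cells. CD38, which degrades extracellular NAD, had 31.3 ± 2.66 CPM in GSI cells and 18.5 ± 1.56 CPM in DMSO cells (adjusted p = 0.0683, edgeR). Intracellular 5'-nucleotidases, 8 tested of 11 listed, had 0 that rose and 0 that fell in either group, with a median of -0.05 in GSI cells, and NT5DC2, with the highest CPM, had a log2 fold change of -0.09.

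**Figure D4:**
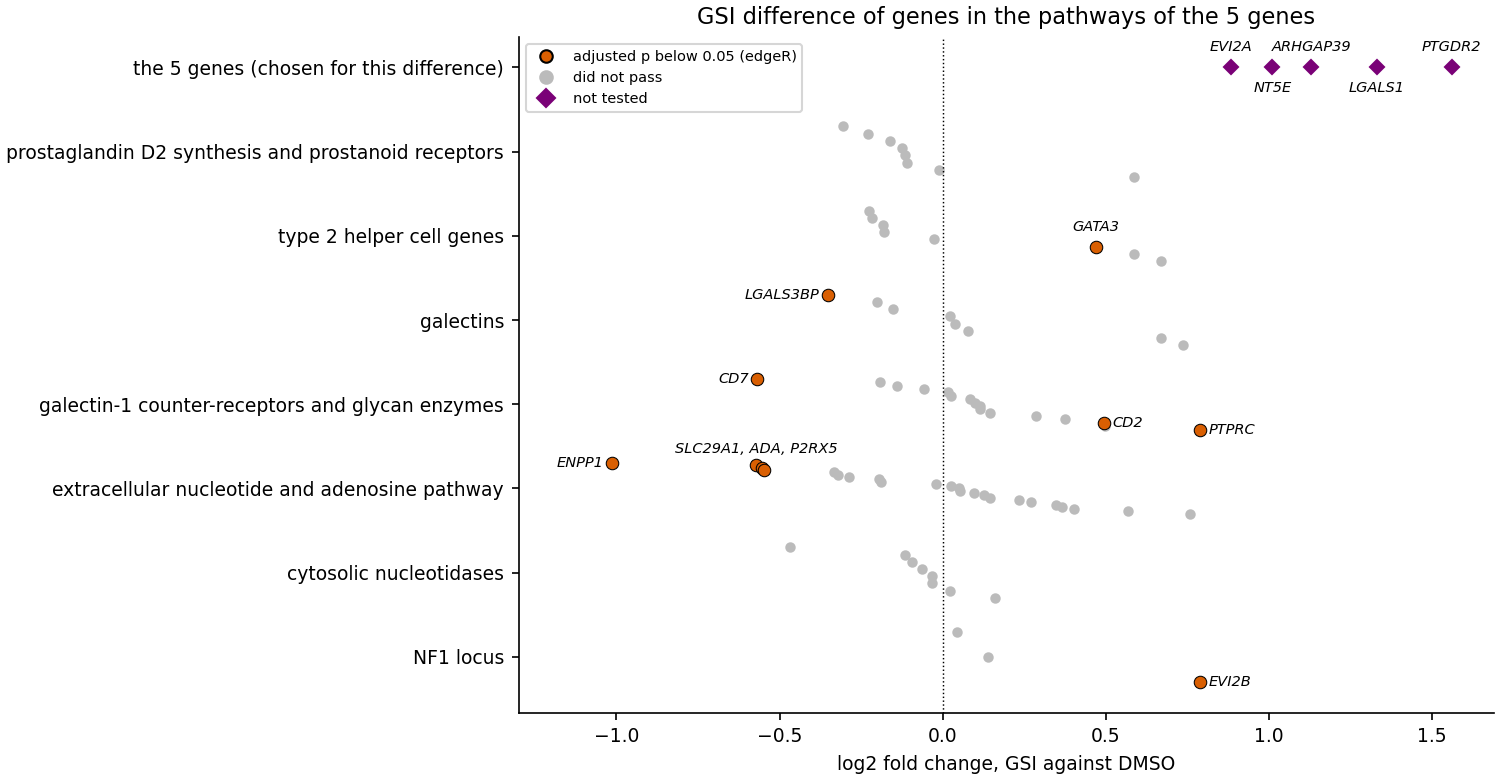
Log2 fold change in GSI against DMSO cells of the 5 genes (diamonds, not tested) and of the tested genes of 7 lists from their pathways, families and surroundings, with orange points for an adjusted p below 0.05 in edgeR and height within a row set only by rank. The 5 genes lie at 0.88 to 1.56, and the points that passed elsewhere run from -1.01 for ENPP1 to 0.79 for PTPRC and EVI2B.

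Genes of the NOTCH response were lower where the 5 genes were higher. Of 10 genes of NOTCH signalling in T cells 9 were tested, and 8 fell in GSI cells and 7 in combination cells, with 0 rising in either. Of all tested genes 0.863% fell in GSI cells and 0.767% in combination cells. In dTAG-13 against DMSO cells 0 of the 9 passed, as 0.0192% of tested genes did. For the dTAG-13 effect averaged over GSI status 1 of the 9 passed as higher, as did 12 of the 15646 tested genes. DTX1, which encodes the NOTCH regulator Deltex 1, had 18.4 ± 1.95 CPM in combination cells, 18.6 ± 0.360 CPM in GSI cells, 102 ± 3.57 CPM in dTAG-13 cells and 146 ± 11.8 CPM in DMSO cells (SD, n = 2 each). HES1, a NOTCH-induced repressor, fell by 2.16 on the log2 scale in GSI cells (adjusted p = 5.71e-05, edgeR), and MYC by 0.94 (adjusted p = 1.39e-04, edgeR).

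The summed level of B-cell markers, some of which T-cell leukaemia lines express, was higher in the libraries with GSI. The 10 genes, of which 1 was at 0, summed to 333 to 381 CPM in combination, 347 to 488 CPM in GSI, 234 to 282 CPM in dTAG-13 and 251 to 285 CPM in DMSO libraries. Of 4 tested 1 rose in GSI and 1 in combination cells, CD79A in both, at 98.7 ± 14.2 CPM in GSI cells and 65.5 ± 7.36 CPM in DMSO cells (SD, n = 2 each; log2 fold change 0.59, adjusted p = 0.0157, edgeR). The call in GSI cells was lost without either DMSO replicate or GSI replicate 2, with an edgeR adjusted p of up to 0.324, and that in combination cells without any of the 4 libraries (up to 0.467). Their part in the difference of the 5 genes was not tested.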

How the data were processed

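The 8 strand-specific paired-end libraries were made from total RNA, per the labels' protocols. STAR 2.5.2a, featureCounts and DESeq2 1.12.4, with the build hg19, are the authors' tools per the submitters' processing notes. A table of whole-number counts per gene and library was deposited by the authors and is the basis of all values here. They also deposited 3 tables of each treatment against DMSO, in which the signal (mean normalised count), the log2 fold change, its error, the score (fold change over error) and each p-value are the authors' own. Neither strand setting nor annotation of the counting is given in the sources used here. No coordinates of the counts are given, since the reference tables used (GENCODE v29 and RefSeq, GRCh38) are of another build.

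From the deposited counts, genes were kept by filterByExpr, scaled by TMM and fitted in 1 model of 4 groups over 8 libraries by edgeR 4.0.16 (limma 3.58.1, R 4.3.3), with robust quasi-likelihood tests, 4 residual degrees of freedom and a common biological coefficient of variation of 0.0804. Kept genes held at least 99.891% of each library. Tests were 2-sided, with Benjamini-Hochberg adjustment over all 15646 genes and a threshold of 0.05. Intervals are 95%. A symbol with several identifiers was read from the one with the most counts. The script was tested on simulated data. RefSeq names matched 12283 of the tested genes.

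The 5 genes and the 14 lists were chosen with earlier results of these data known. Besides the 5, the text names up to 3 genes per list and direction that passed with a mean of at least 1 CPM, the most abundant gene of each list, a few fixed genes, and neighbours and likenesses by rule. Lists of genes related to ARHGAP39 are not reported here. ZP1, COPRS, PTGER4, HPGDS, CCR4, IL4R, P2RX1 and CD38, and the genes beside the 5 in the rankings, were added after their values were seen.

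Other settings were DESeq2 size factors, no filter, the Wald test of DESeq2 1.42.0, only the libraries compared, a replicate block, and leaving out each library. A block with crossed DMSO numbers was added after seeing the data.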

Additional observations from a re-analysis of the deposited data

How the results depend on the processing

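None of the 5 genes passed in any tested comparison under any of the settings tried. Over the 3 comparisons with and without GSI, all 150 values of the 5 genes under other settings stayed positive, 142 within the spread between replicates. The genes were chosen for this rise, and their libraries with and without GSI did not overlap. Leaving out libraries could therefore hardly turn these signs, and the signs are no check of the rise. Leaving out libraries turned the sign of small differences in combination against GSI cells: PTGDR2 ranged from -0.10 to 0.13, LGALS1 from -0.25 to 0.18 and ARHGAP39 from -0.11 to 0.10, and without the filter on low counts ARHGAP39 had 0.0011. The departure of EVI2A ranged from -0.14 to 0.027. In GSI against DMSO cells CD3E ranged from -0.0482 to 0.10, NF1 from -0.0264 to 0.29, NT5DC2 from -0.26 to 0.0576 and THY1 from -0.24 to 0.0695. The cause was not tested.

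Counts of genes that passed moved more, and are given as main value, then DESeq2's Wald test, no filter, only the libraries compared, and replicate block. They were 272, 333, 660, 252 and 559 in GSI against DMSO cells, and 205, 252, 532, 199 and 413 in combination against DMSO cells. They were 189, 259, 563, 96 and 476 in combination against dTAG-13 cells, and 9, 23, 59, 4 and 34 in combination against GSI cells. In dTAG-13 against DMSO cells they were 3, 24, 51, 77 and 23. For the averaged dTAG-13 effect they were 78 at first, 109 by DESeq2, 165 without the filter and 135 with the block.

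Leaving out a library gave 32 to 228 in GSI against DMSO cells (49 without DMSO replicate 1, 32 without DMSO replicate 2, 129 without GSI replicate 1) and 36 to 241 in combination against DMSO cells (53 without DMSO replicate 1, 36 without DMSO replicate 2, 86 without combination replicate 1). It gave 38 to 255 in combination against dTAG-13 cells, 5 to 6 in combination against GSI cells, 0 to 1 in dTAG-13 against DMSO cells, 12 to 72 for the averaged effect and 0 to 1 for the departure, where the 1 came without DMSO replicate 1. With 1 library left in a group, that library was assumed to vary like the other groups.

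The labels name no shared batch or day behind the replicate numbers, so they were not used as pairs. The replicate differences of DMSO went against those of dTAG-13, GSI and combination (r across 10555 genes of -0.18, -0.37 and -0.13), while those of the other groups ran together (0.50 to 0.58), so the DMSO numbers may be crossed. A block with the DMSO numbers crossed gave 94, 1581, 1191, 103, 1434 and 283 genes in dTAG-13, GSI and combination against DMSO, combination against GSI, combination against dTAG-13 and the averaged effect. The crossing was chosen from these same correlations, which favours higher counts, so the counts are no check of it. Counts of the 5 genes ran from 44 to 363 per library, which limits their precision.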
